A study of Mus musculus with 6 samples.

Results

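Integrins and laminins were examined here in embryoid bodies made from mouse induced pluripotent stem cells (iPSCs), with and without compressive load. The genes were all protein-coding mouse genes whose symbol is that of an integrin α or β subunit (Itga or Itgb with a number or letter, without Itgbl1) or of a laminin α, β or γ chain (Lama, Lamb or Lamc with a number). This rule gave 38 genes of the 50686 in the count files, 27 for integrin subunits (18 α and 9 β) and 11 for laminin chains (5 α, 3 β and 3 γ). Of these, 28 had enough reads to be tested among the 16729 genes tested in all.

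The iPSCs had been reprogrammed from gingival fibroblasts and grown on SNL feeder cells, which were removed by selective trypsinization. Embryoid bodies were cultured with retinoic acid in both groups, placed on plates coated with gelatin, and then either left unloaded (control, 3 samples) or treated with intermittent compressive force (ICF, 3 samples). ICF was 1.5 g per square centimetre at 0.23 Hz for 24 h, and both groups were in serum-free medium. The labels name donors 1 to 3 in each group, taken here as replicates 1 to 3, and the study's methods do not say what a donor was. The mouse strain and the reprogramming method are not given in the sources used here.

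Laminins are secreted trimers of 1 α, 1 β and 1 γ chain, and they form the polymer sheet on which a basement membrane is built. In embryoid bodies the outer layer of primitive and parietal endoderm lays down such a membrane, rich in the trimer of the α1, β1 and γ1 chains. Integrins are membrane receptors made of 1 α and 1 β subunit, which bind laminins, collagens, fibronectin and other ligands outside the cell and are tied through talin, kindlin and other adaptors to actin inside. The β1 subunit pairs with most of the α subunits, so it is shared by laminin, collagen and fibronectin receptors.

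Levels are given as CPM, the reads of a gene per 1000000 reads on genes after scaling by the TMM method, and differences as log2 fold changes of ICF against control. A gene is said to have passed the test where its p-value, adjusted by Benjamini-Hochberg over all 16729 genes, was under 0.05 in edgeR's quasi-likelihood test. The labels number the samples of both groups alike. A second fit took this replicate number as a block, and so compared ICF with control within the 3 numbered pairs. It is given wherever it changed the call of an integrin or laminin gene or the count of a list. Whether samples of the same number are true pairs was not tested. Between 28711166 and 34194413 reads were counted on genes in a sample. ICF replicate 3 stood apart. A multiple of 4 made up 89% of its counts above 0, while this share was 20.3% to 21.5% elsewhere, and it held counts for 20802 genes, against 24340 to 24889. How many independent reads lie behind its counts was not determined, so low counts in this sample are less certain. Values without the samples numbered 3 are therefore given for the integrin and laminin genes described sample by sample. The cells had high levels of pluripotency genes (Pou5f1 at 741 to 883 CPM) and of endoderm genes (Gata4 at 165 to 187 CPM). Fibroblast genes were at lower levels. The 10 fibroblast and feeder markers summed to 60.0 to 132 CPM, with Dcn at 6.44 to 10.4 CPM and Fbln2 at 16.3 to 35.0 CPM.

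The laminin genes were dominated by 3 chains. Lama1, Lamb1 and Lamc1 together held 95.2% to 96.7% of all laminin CPM and 78.1% to 83.1% of the CPM of all 38 genes, and took 0.365% to 0.519% of all reads on genes. By mean CPM, Lamc1 ranked 27th, Lama1 31st and Lamb1 41st of 21764 protein-coding genes, whereas the first integrin, Itgb1, ranked 590th. Per kilobase of exon, which allows comparison between genes of different length, Lamc1 was at 199, Lama1 at 165 and Lamb1 at 132 CPM per kilobase. The order of these 3 depends on the length used, since the union of exons and the longest transcript differ most for Lamb1.

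Within each laminin class 1 chain made up nearly everything. Lama1 held 92.0% to 95.1% of the α chain level per kilobase across the 6 samples, and Lama5, the α chain of most adult epithelial basement membranes, held 4.46% to 7.41%. Lamb1 held 93.2% to 94.4% of the β chains, with Lamb2 at 5.52% to 6.75%, and Lamc1 held 99.2% to 99.4% of the γ chains. Lama3, Lama4 and Lamb3 each held under 1% of their class, and Lama2 and Lamc3 were not tested for lack of reads. Lama3 and Lamb3 code for chains found in the basement membrane beneath stratified epithelium.

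**Figure D1:**
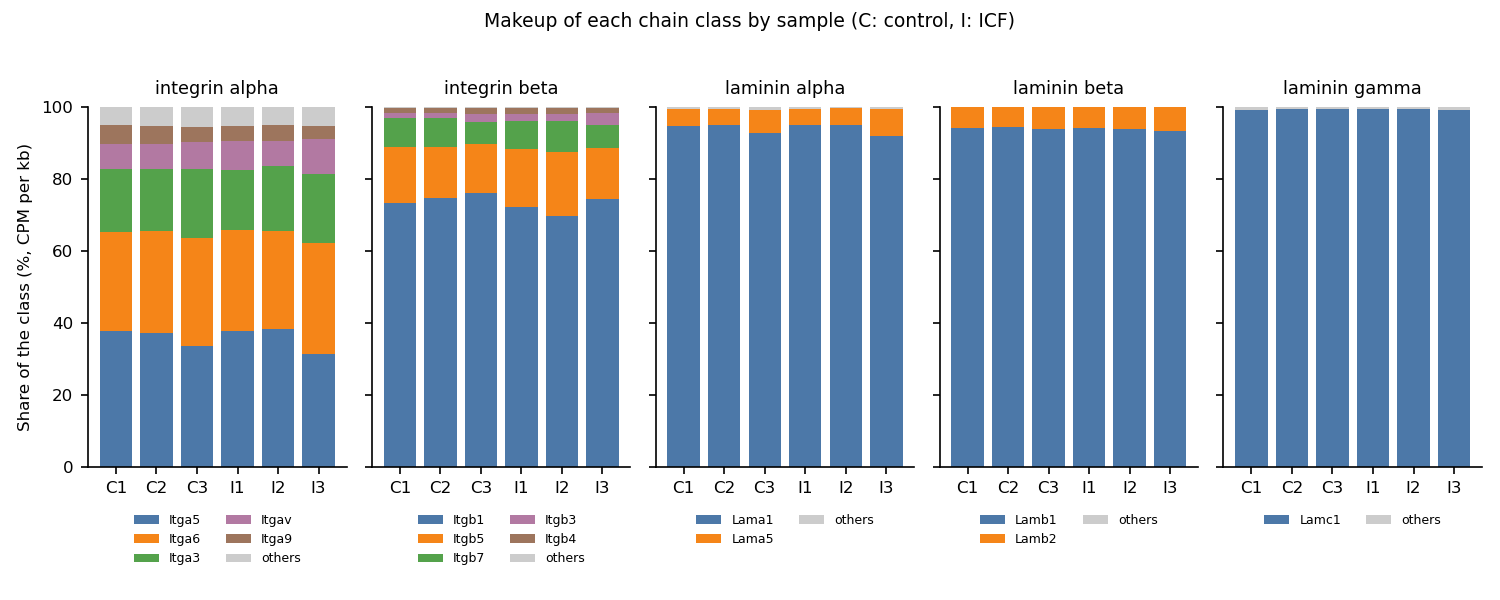
Share of each integrin or laminin class (percent of the class's summed CPM per kilobase of exon) held by each gene in each of the 6 samples (C1 to C3 control, I1 to I3 ICF). Lama1, Lamb1 and Lamc1 fill nearly the whole of their classes in every sample, Itgb1 holds 69.6% to 76.2% of the β integrins, and the α integrins are spread over several genes.

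All 9 tested laminin genes were lower with ICF, by log2 fold changes from -0.77 to -0.19 (median -0.24). Over all genes tested the median was 0.0 and 49.6% were lower. None of the 9 passed the edgeR test, and 4 had an unadjusted p under 0.05. DESeq2 called 2 of them lower, Lama1 and Lamc1. With the replicate block, 5 of the 9 passed and were lower (Lama1, Lama5, Lamb1, Lamb2 and Lamc1) and none was higher. In bulk samples such as these, fewer cells of a type and less RNA per cell cannot be told apart.

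These counts need the background. An unadjusted p under 0.05 was found for 25.6% of all genes tested. In the edgeR test 3.47% of all genes were called higher and 4.38% lower, and of the 28 integrin and laminin genes 1 was called in each direction, which is close to that background. The replicate block called 14.6% of all genes higher and 15.3% lower. By the same fit 2 of the 28 were higher (7.14%) and 9 were lower (32.1%). All 3 ICF samples lay below all 3 control samples for 15.7% of all genes and above them for 15.6%, and for 8 and 1 of the 28.

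Lama1 (chromosome 17, 67697259 to 67822647, plus strand, GRCm38) codes for the laminin α1 chain, which carries the globular domains that bind receptors. It was at 1816, 1859 and 1599 CPM in control replicates 1, 2 and 3 and at 1525, 1536 and 1229 CPM in ICF replicates 1, 2 and 3. The groups did not overlap, and replicate 3 was the lowest sample of each group. The log2 fold change was -0.30 ± 0.13 (SE, n = 3 per group), with an edgeR adjusted p of 0.097. Under the replicate block the adjusted p became 5e-06. Both samples numbered 3 left out, the log2 fold change was -0.26 (edgeR adjusted p = 0.00011), and without ICF replicate 3 alone it was -0.19.

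Lamb1 (chromosome 12, 31265234 to 31329644, plus strand), which codes for the β1 chain, was at 1513, 1533 and 1252 CPM in the control and at 1237, 1269.8 and 1035 CPM with ICF. The groups overlapped only through control replicate 3, which was below ICF replicate 2, while each ICF sample was below the control of its own number. Its log2 fold change was -0.28 ± 0.13 (SE, n = 3 per group; edgeR adjusted p = 0.13, and 1.6e-05 with the replicate block), and -0.28 also with both samples numbered 3 left out (edgeR adjusted p = 6.7e-05). Without control replicate 3 alone, Lamb1 passed the unpaired test as well, at an edgeR adjusted p of 0.04.

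Lamc1 (chromosome 1, 153218922 to 153332786, minus strand) codes for the γ1 chain, the partner common to most laminin trimers and the one that binds nidogen. It was at 1798, 1882 and 1689 CPM in the control and at 1594, 1561 and 1378 CPM with ICF. Every ICF sample was below every control sample. Its log2 fold change was -0.24 ± 0.08 (SE, n = 3 per group; edgeR adjusted p = 0.078, and 0.00011 with the replicate block). Without the samples numbered 3 it was -0.22, with an edgeR adjusted p of 0.00073.

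The 3 chains differed by similar amounts within each pair. In pairs 1, 2 and 3 the log2 ratio of ICF to control was -0.25, -0.28 and -0.38 for Lama1. For Lamb1 it was -0.29, -0.27 and -0.27, and for Lamc1 it was -0.17, -0.27 and -0.29. Their summed level was 5127, 5273 and 4539.9 CPM in the control and 4355, 4366 and 3642 CPM with ICF, and the CPM ratio of Lama1 to Lamb1 stayed between 1.19 and 1.28 in the 6 samples. Control replicate 3 was lower than the other controls for all 3 chains, as ICF replicate 3 was among the ICF samples.

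Lama5 and Lamb2 were lower in every pair too, at much lower levels. Lama5 was at 107, 102 and 134 CPM in the control and at 87.9, 85.7 and 116 CPM with ICF, so here the samples numbered 3 were the highest of their groups and the groups overlapped. Its log2 fold change was -0.24 ± 0.18 (SE, n = 3 per group; edgeR adjusted p = 0.31, and 0.00037 with the replicate block). With both samples numbered 3 left out it was -0.27 (edgeR adjusted p = 0.00055), without ICF replicate 3 alone it was -0.39, and without control replicate 3 alone it was -0.12. Lamb2, the β chain of synaptic and kidney basement membranes, had a log2 fold change of -0.19 ± 0.06 (SE, n = 3 per group; edgeR adjusted p = 0.13, 0.016 with the replicate block and 0.058 with the block in DESeq2), and -0.22 with both samples numbered 3 left out (edgeR adjusted p = 0.0089). Across the 5 laminin genes called with the block, all 15 pair ratios were below 0, from -0.38 to -0.14 on the log2 scale. Over all 9 tested laminins 23 of 27 were. The ratios above 0 included those of Lama3 in pair 1 and of Lama4 and Lamb3 in pair 3.

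**Figure D2:**
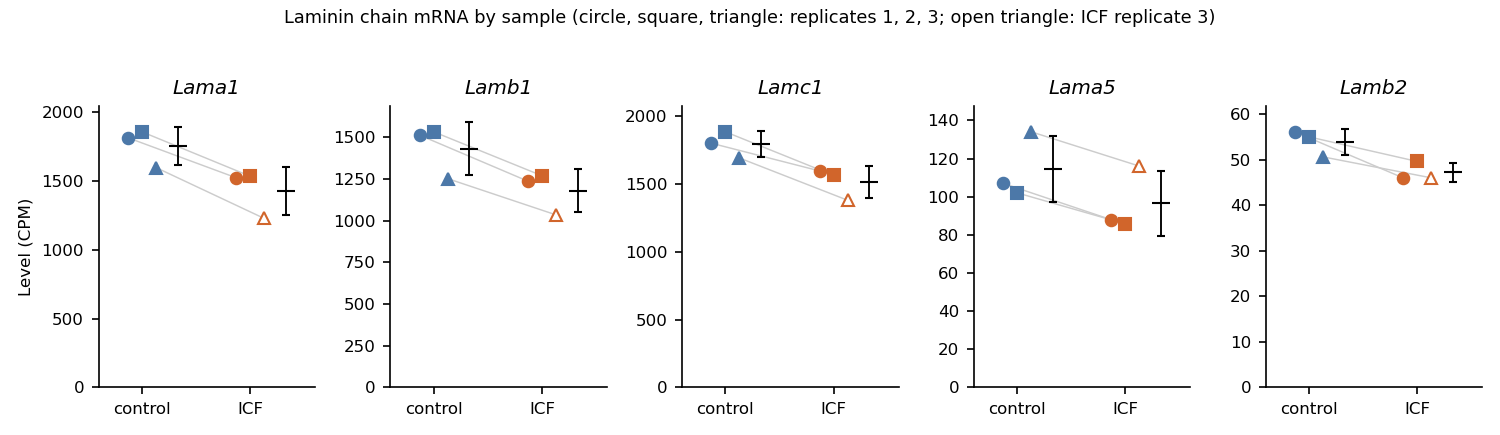
Level in CPM (y axis, from 0) of the 5 laminin genes called lower with the replicate block, in the 3 control and 3 ICF samples. Blue and orange points are control and ICF samples, circles, squares and triangles mark replicates 1, 2 and 3, grey lines join samples of the same number, and the black bars give mean ± SD (n = 3). Each line slopes down from control to ICF, and the replicate 3 samples are the lowest for Lama1, Lamb1 and Lamc1 and the highest for Lama5.

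The sequence before the start of a gene is shown for 3 genes whose calls differ in direction or class: Lamb1, Itgb1 and Itga1. The RefSeq promoter table of GRCm38.p6 held 24 of the 38 genes, and 6 of the 10 genes chosen by rule for description sample by sample. Up to 250 bases before the RefSeq start are given, 5′ to 3′ on the gene's strand, without bases that GENCODE M21 places inside the gene. Capitals mark matches on either strand to 6 motifs. The first was the GC box that SP1 binds, written GGGCGG. The letters of the TATA box were TATAAA. Factors of the GATA family were represented by AGATAA. For SOX proteins, which act in endoderm among other tissues, the letters were AACAAT. TEAD proteins, the partners of YAP, were represented by GGAATG. The last motif, that of AP-1, was TGANTCA, where N is any base.
Lamb1 (chr12:31265043-31265233, plus strand): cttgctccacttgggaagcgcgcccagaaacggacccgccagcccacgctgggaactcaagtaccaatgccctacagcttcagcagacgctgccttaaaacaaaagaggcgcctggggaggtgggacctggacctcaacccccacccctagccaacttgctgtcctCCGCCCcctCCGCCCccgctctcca
Itgb1 (chr8:128685404-128685653, plus strand): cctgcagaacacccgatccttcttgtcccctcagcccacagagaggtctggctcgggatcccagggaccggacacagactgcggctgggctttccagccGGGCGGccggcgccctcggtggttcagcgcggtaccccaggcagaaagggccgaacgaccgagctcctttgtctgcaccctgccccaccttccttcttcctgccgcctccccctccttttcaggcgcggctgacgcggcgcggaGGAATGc
Itga1 (chr13:115101965-115102214, minus strand): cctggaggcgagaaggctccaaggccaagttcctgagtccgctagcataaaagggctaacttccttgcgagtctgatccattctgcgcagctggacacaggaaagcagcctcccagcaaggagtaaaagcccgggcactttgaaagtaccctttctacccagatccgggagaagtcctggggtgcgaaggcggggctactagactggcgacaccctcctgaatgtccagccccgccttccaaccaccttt

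The Lamb1 stretch held 2 GC box matches, on the minus strand of the window, and no other match. Of all 32851 promoters in the table, 23.1% held a GC box match in a window of that length (191 bases). The Itgb1 stretch held 1 GC box match and 1 GGAATG match, which 32.7% and 12.6% of all promoters held in 250 bases. The Itga1 stretch held no match to any of the 6. These matches describe the letters of these windows and were not tested against the changes.

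The integrin α subunits were spread over more genes than the laminin chains. Per kilobase of exon, Itga5 held a mean of 36.0% of the α subunit level, Itga6 28.6%, Itga3 18%, Itgav 7.72% and Itga9 4.44%. Divided by the longest transcript instead, Itga6 came first at 41.1% and Itga5 second at 27.6%, so the order of these 2 is not settled. Itgb1 held 69.6% to 76.2% of the β subunits, followed by Itgb5 (13.5% to 17.8%) and Itgb7 (6.10% to 8.71%). The summed α level was 69.7, 70.0 and 71.5 CPM per kilobase in the control and 66.6, 65.3 and 64.8 with ICF, and the summed β level was 99.8, 103 and 98.4 against 91.6, 89.5 and 93.1. Neither sum overlapped between the groups, and no test was run on them.

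Of the 19 integrin genes tested, 1 was upregulated (Itga1) and 1 downregulated (Itga7) in the edgeR test, 5.26% each. Among all genes tested these shares were 3.47% and 4.38%. An unadjusted p under 0.05 was found for 6 of the 19 (31.6%), against 25.6% of all genes tested. Of the 19, 11 were lower and 8 higher, and their median was -0.10. The replicate block called 2 higher (Itga1 and Itgb3, 10.5% of the 19) and 4 lower (Itga7, Itga9, Itgb1 and Itgb6, 21.1%). It called 14.6% of all genes tested higher and 15.3% lower.

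Itga1, at chromosome 13 (114953096 to 115101964, minus strand, GRCm38), codes for the α1 subunit, which pairs with β1 as a receptor for collagens, collagen IV among them, and for laminins. It was at 2.36, 2.78 and 2.02 CPM in the control and at 4.0, 4.09 and 5.25 CPM with ICF. Every ICF sample was above every control sample, and the widest gap was in pair 3. Itga1 rose by a log2 fold change of 0.89 ± 0.18 (SE, n = 3 per group), with an edgeR adjusted p of 0.024. Without both samples numbered 3 it was 0.65, with an edgeR adjusted p of 0.0031. The counts behind it were low, 58 to 87 reads in control samples and 135 to 152 with ICF, and Itga1 held 0.152% to 0.435% of the α subunit level. The edgeR call was lost without control replicate 1 (adjusted p = 0.11), control replicate 2 (0.064), ICF replicate 1 (0.058) or ICF replicate 2 (0.055). Of its 75-base stretches, 4.96% also occur in Gm49395, a gene model that overlaps it.

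The 4 collagen-binding α subunits together stood at 0.805 to 1.27 CPM per kilobase. The 3 grouped here as laminin-binding (Itga3, Itga6 and Itga7) stood at 30.6 to 36.7. Besides Itga1, Itga10 had a log2 fold change of 0.29 ± 0.18 (SE, n = 3 per group; edgeR adjusted p = 0.34), and Itga2 and Itga11 had too few reads to be tested. Itga10 shares 30.7% of its 75-base stretches with the gene model Gm42957, so its count is uncertain.

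Itga3, Itga6 and Itga7, grouped here as laminin-binding α subunits, were all lower with ICF, and 1 of them passed the test. Itga1, whose product also binds laminins, was grouped with the collagen-binding subunits and was higher. The grouping was made after the values were known, so the shared direction of these 3 depends on it. Itga7, at chromosome 10 (128933818 to 128958282, plus strand), codes for the α7 subunit, a laminin receptor known best from muscle. It was at 10.3, 10.5 and 11.7 CPM in the control and at 7.43, 8.32 and 7.87 CPM with ICF. The groups did not overlap, and the spread within each was small. Itga7 fell by 0.46 on the log2 scale (SE 0.07, n = 3 per group; edgeR adjusted p = 0.038, and 0.001 with the replicate block). With both samples numbered 3 left out the log2 fold change was -0.40, with an edgeR adjusted p of 0.0068. The unpaired call was lost when control replicate 1, 2 or 3 or ICF replicate 1 or 2 was left out alone, with edgeR adjusted p from 0.063 to 0.14.

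The other 2 subunits of this group, which are far more abundant, passed neither fit. Itga6, the α subunit of laminin receptors with both β1 and β4, was at 172, 179 and 194 CPM in the control and at 168, 159.8 and 181 CPM with ICF. The groups overlapped, although each ICF sample was below the control of its number (log2 fold change -0.10 ± 0.07, SE, n = 3 per group; edgeR adjusted p = 0.41, and 0.13 with the replicate block), and the value was also -0.10 with both samples numbered 3 left out. Itga3, whose product binds the laminins with α3 and α5 chains, had a log2 fold change of -0.11 (edgeR adjusted p = 0.42). Itgb4, the β subunit of hemidesmosomes and a partner of α6 alone, had a log2 fold change of 0.02 and 10.5 to 11.8 CPM over all samples.

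Itgb1 (chromosome 8, 128685654 to 128733200, plus strand) codes for the β1 subunit, the common partner of the laminin, collagen and fibronectin receptors. It was at 298, 314 and 306 CPM in the control and at 270.1, 254 and 282 CPM with ICF. All ICF samples lay below all control samples, by a small margin, with a log2 fold change of -0.19 ± 0.05 (SE, n = 3 per group; edgeR adjusted p = 0.094, and 0.0044 with the replicate block). Without both samples numbered 3 it was -0.22, with an edgeR adjusted p of 0.0022, and DESeq2 gave an adjusted p of 0.045 on all samples.

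Among the α subunits that bind the RGD motif of fibronectin, vitronectin and other ligands, none of the 4 tested passed either fit. Itga5, the fibronectin receptor's α subunit and the first α subunit by level per kilobase, was at 130.0, 129 and 118 CPM in the control and at 124, 123 and 99.6 CPM with ICF. The groups overlapped and ICF replicate 3 was the lowest sample (log2 fold change -0.12 ± 0.11, SE, n = 3 per group; edgeR adjusted p = 0.46, and 0.076 with the replicate block). The value was -0.06 with both samples numbered 3 left out and -0.02 without ICF replicate 3 alone. Itgav had a log2 fold change of 0.13, Itga8 of 0.31 and Itga2b of -0.42, with edgeR adjusted p of 0.51, 0.51 and 0.17.

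Itga9 codes for the α9 subunit, a receptor for tenascin-C, osteopontin and other ligands. It was at 28.0, 26.8 and 23.6 CPM in the control and at 21.2, 21.9 and 18.2 CPM with ICF. The groups did not overlap, and replicate 3 was again the lowest of each. Itga9 had a log2 fold change of -0.35 ± 0.11 (SE, n = 3 per group; edgeR adjusted p = 0.068, and 0.00038 with the replicate block), and it was -0.35 with both samples numbered 3 left out (edgeR adjusted p = 0.0008). Without control replicate 3 alone Itga9 passed the unpaired test, at an edgeR adjusted p of 0.038.

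Among the β subunits, Itgb3 and Itgb6 passed with the replicate block in edgeR and not in the unpaired test, in opposite directions. The same block in DESeq2 gave Itgb3 an adjusted p of 0.11 and gave none for Itgb6. Itgb3, the partner of αv and αIIb, was at 8.14, 8.34 and 13.1 CPM in the control and at 10.1, 9.87 and 17.8 CPM with ICF. Both samples numbered 3 were high, control replicate 3 lay above ICF replicates 1 and 2, and each ICF sample lay above the control of its number. Itgb3 had a log2 fold change of 0.35 ± 0.36 (SE, n = 3 per group; edgeR adjusted p = 0.45, and 0.009 with the replicate block). With both samples numbered 3 left out it was 0.27, with an edgeR adjusted p of 0.049, or 0.062 with the replicate block as well, while it was 0.02 without ICF replicate 3 alone and 0.60 without control replicate 3 alone.

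Itgb6 codes for an epithelial β subunit that pairs with αv and activates latent TGF-β. It was at 0.582, 1.09 and 1.15 CPM in the control and at 0.605, 0.424 and 0.276 CPM with ICF. The samples numbered 1 were nearly equal, and the difference came from pairs 2 and 3. These levels rest on 8 to 34 reads per sample (log2 fold change -1.09 ± 0.40, SE, n = 3 per group; edgeR adjusted p = 0.12, and 0.029 with the replicate block). With both samples numbered 3 left out the log2 fold change was -0.70 and the call was not made (edgeR adjusted p = 0.14). Itgb8, the other αv partner linked to latent TGF-β, had a log2 fold change of 0.94 ± 0.47 (SE, n = 3 per group) on 11 to 36 reads and passed neither fit. Its value was 0.48 with both samples numbered 3 left out and 0.44 without ICF replicate 3 alone. Itgb5 and Itgb7 had log2 fold changes of 0.01 and -0.09.

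**Figure D3:**
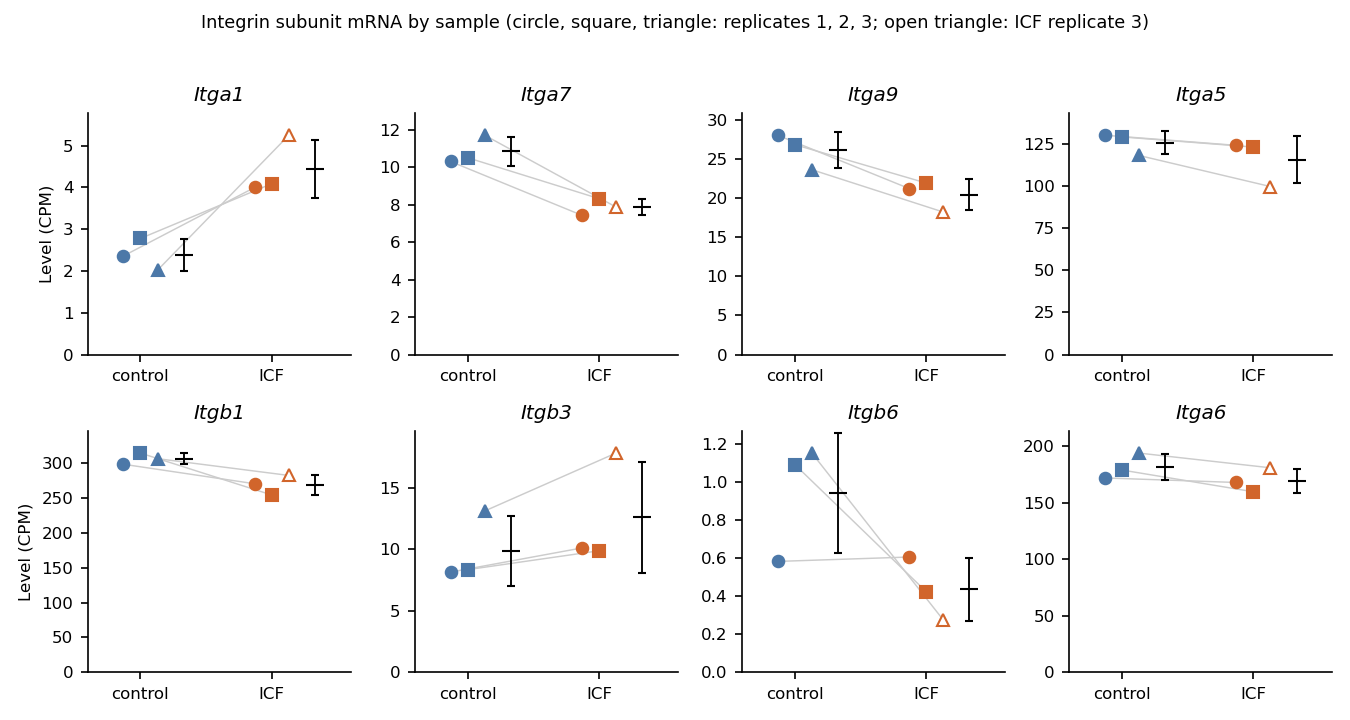
Level in CPM (y axis, from 0) of 8 integrin genes in the 3 control and 3 ICF samples. Blue and orange points are control and ICF samples, circles, squares and triangles mark replicates 1, 2 and 3, grey lines join samples of the same number, and the black bars give mean ± SD (n = 3). Itga1 is higher in all 3 ICF samples, Itga7, Itga9 and Itgb1 are lower in all 3, and for Itgb3 the replicate 3 samples are the highest in both groups.

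Most integrins known from leukocytes had few reads. Itgam, Itgax, Itgad, Itgb2 and Itga4 had at most 20 reads in any sample and were not tested, and Itgb2l had no read in any sample. A count of 0 allows up to 3 reads in a sample of this depth. Itgam shares 71.7% of its 75-base stretches with the gene model Gm49368. Itgal and Itgae were tested at 0.967 to 2.64 CPM, with log2 fold changes of -0.38 and -0.39 and edgeR adjusted p of 0.23 and 0.36. Itgb7, a β subunit of lymphocytes, was far above these at 16.3 to 22.5 CPM, and the platelet pair of Itga2b and Itgb3 was tested at 1.66 to 2.56 and 8.14 to 17.8 CPM. Of 12 leukocyte marker genes 6 were tested and none passed the edgeR test, which called 3.47% of all genes higher and 4.38% lower. With the replicate block these shares over all genes were 14.6% and 15.3%. Laptm5, at 34.5 to 40.6 CPM in the control and 41.1 to 52.5 CPM with ICF, passed with the replicate block in edgeR (log2 fold change 0.35, adjusted p = 6e-05) and in DESeq2 without it (0.044). Cd68 was at 15.4 to 22.0 CPM, whereas Adgre1, Tyrobp and Ptprc had between 0 and 0.276 CPM.

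**Figure D4:**
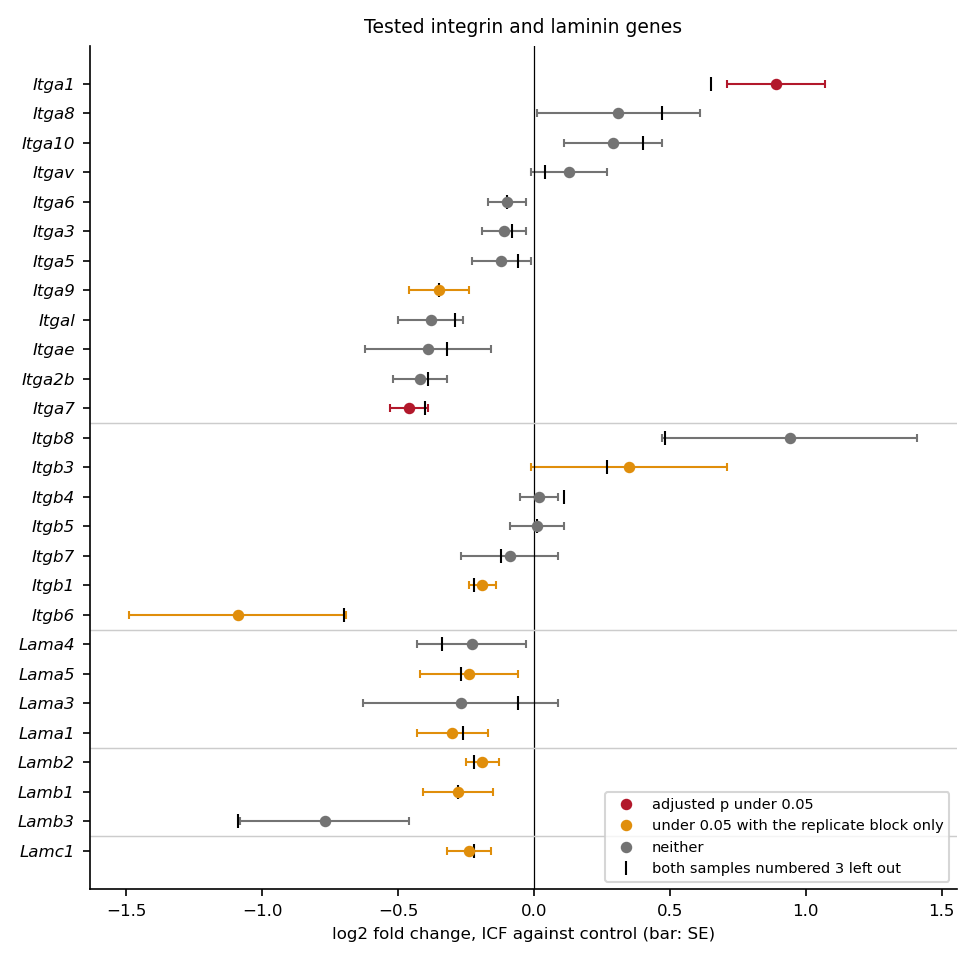
The log2 fold change of ICF against control (x axis, with SE) for 27 of the 28 tested genes, grouped from top to bottom as integrin α, integrin β, laminin α, laminin β and laminin γ. Red points passed the edgeR test, orange points passed with the replicate block only, grey points passed neither, and black ticks give the value with both samples numbered 3 left out. All laminins drawn lie left of 0, and the integrins lie on both sides.

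Genes coding for the proteins that surround the laminin polymer in the basement membrane differed in both directions at the mRNA level. Of 21 such genes 18 were tested, and the edgeR test called 2 higher and 1 lower. Npnt (nephronectin, a ligand of integrin α8β1) rose by a log2 fold change of 1.02 (edgeR adjusted p = 0.016) and Frem2 by 0.57 (0.015), and Nid2, which links laminin γ1 to collagen IV, fell by 0.42 (0.0082). Under the replicate block 2 were higher and 8 were lower, where the block called 14.6% of all genes tested higher and 15.3% lower. In the edgeR test these shares over all genes were 3.47% and 4.38%. Collagen IV is the other polymer of the membrane, and Col4a1 was at 2037 to 2383 CPM in the control and 1594 to 1992 CPM with ICF. Col4a1 and Col4a2 had log2 fold changes of -0.29 and -0.37, with edgeR adjusted p of 0.096 and 0.067, or 9e-06 and 1.7e-07 with the replicate block. The median of the 18 was -0.09.

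Of 31 adaptors and kinases of the adhesion site, all were tested and 2 passed. Src, the kinase that acts with focal adhesion kinase, was at 93.4, 91.6 and 85.2 CPM in the control and at 60.3, 61.2 and 63.0 CPM with ICF. All 3 ICF samples lay well below the controls. Src fell by 0.55 on the log2 scale (edgeR adjusted p = 0.0018). Fermt1 (kindlin-1) rose by 1.03 (edgeR adjusted p = 0.02) at levels of 1.46 to 4.28 CPM. The kindlin of higher level here, Fermt2, and talin (Tln1) had log2 fold changes of -0.15 and -0.16 and passed with the replicate block only. The block called 2 of the 31 higher and 7 lower, against 14.6% and 15.3% of all genes tested. The edgeR test called 3.47% and 4.38% of all genes higher and lower. The median log2 fold change of the 31 was -0.03.

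Of 20 other integrin ligands 18 were tested, and the median of their log2 fold changes was 0.12. Tnc (tenascin-C) rose by 0.63 (edgeR adjusted p = 0.019) and Mfge8, a ligand of αv integrins, fell by 0.76 (0.0035). Under the replicate block 4 were higher and 3 lower, fibronectin (Fn1, log2 fold change -0.23) among the latter. Over all genes tested the block called 14.6% higher and 15.3% lower, and the edgeR test without it 3.47% and 4.38%. Of 14 laminin receptors and co-receptors other than integrins 13 were tested. The syndecans Sdc3 and Sdc4 rose, each by 0.53 (edgeR adjusted p = 0.042 and 0.019). Dag1, which codes for dystroglycan, had a log2 fold change of -0.12 (0.29), and under the replicate block 4 of the 13 were higher and 3 lower. Of these 9 named partner genes, Src and Mfge8 passed also with any 1 sample left out, and each of the other 7 lost its call without at least 1 sample, with edgeR adjusted p up to 0.17. All 9 passed with both samples numbered 3 left out, with log2 fold changes from -0.87 (Mfge8) to 0.90 (Npnt).

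**Figure D5:**
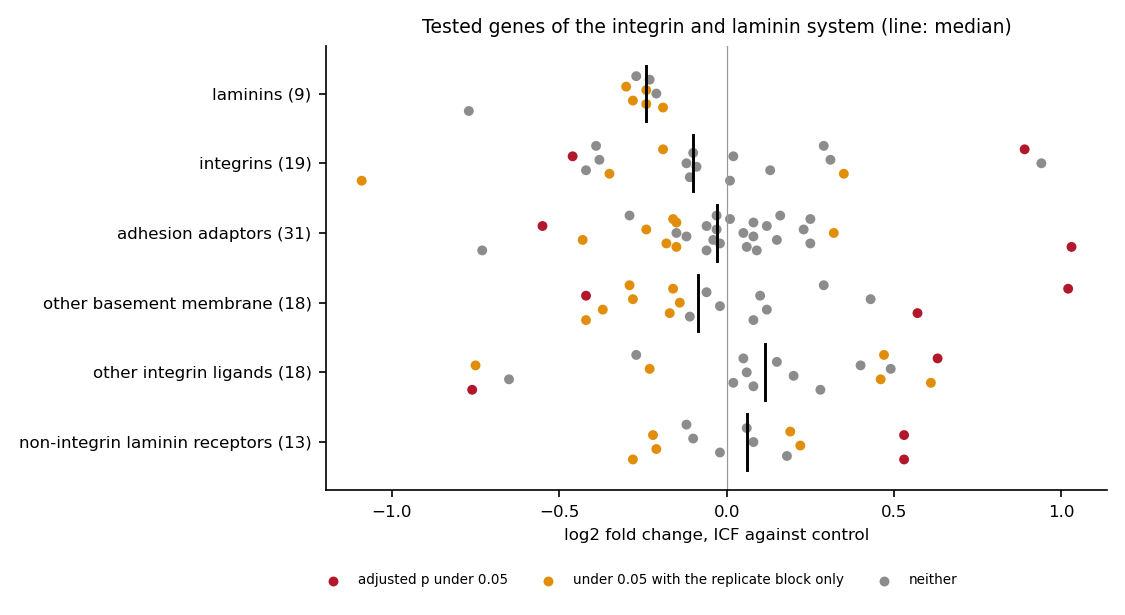
The log2 fold change of ICF against control (x axis) for every tested gene of the laminins, the integrins and 4 lists of their partners, with the number tested in brackets. Red points passed the edgeR test, orange points passed with the replicate block only, grey points passed neither, and the black line is the median. The laminins lie in a narrow band below 0 apart from Lamb3 at -0.77, and the other lists have medians from -0.10 to 0.12.

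Markers of cell types that such cultures can hold are given beside the laminin and integrin results. Of 13 markers of parietal and visceral endoderm, the cells that lay down laminin in embryoid bodies, all were tested, 2 were lower (Sox17 by 0.34 and Amn by 0.44 on the log2 scale, edgeR adjusted p = 0.045 and 0.017) and none was higher. The replicate block called 3 lower and 4 higher, Dab2 and Gata6 (log2 fold changes 0.25 and 0.19, adjusted p = 9.7e-05 and 0.0061) among the latter. Of all genes tested the block called 15.3% lower and 14.6% higher, and the edgeR test 4.38% and 3.47%. The summed level of the 13 endoderm markers was 1961, 1967 and 2593 CPM in the control and 2293, 2213 and 2617 CPM with ICF. The ranges overlapped, each ICF sample was above the control of its number, and none of the 13 was at 0. Cubn (835 to 1253 CPM in the control and 982 to 1204 CPM with ICF) and Dab2 (526 to 763 and 639 to 874 CPM) led this sum, which therefore mostly follows these 2 genes. Of 10 fibroblast and feeder markers 9 were tested and 3 were higher (Col1a1, Col3a1 and Fbln2, log2 fold changes 0.75, 0.73 and 0.72, edgeR adjusted p = 0.022, 0.048 and 0.013), and 4 with the replicate block. Without the samples numbered 3 the values were 0.62, 0.40 and 0.58. The sum of the fibroblast markers was 60.0 to 96.0 CPM in the control and 105 to 132 CPM with ICF, and Lum had at most 4 reads in any sample. Of 10 pluripotency markers 1 was lower (Tdgf1), or 4 with the replicate block, and their sum was 3846 to 4656 against 3479 to 3928 CPM. The part of these cells in the changes of Itga1 and the laminins was not tested.

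The shares of all genes called higher and lower were 3.47% and 4.38% in the edgeR test, and 14.6% and 15.3% with the block. For platelets, endothelium and epithelium the markers gave the following. Of 8 megakaryocyte and platelet markers 3 were tested and 1 was lower (Vwf). Their sum was 4.94 to 5.81 CPM in the control and 1.93 to 3.6 CPM with ICF, and Gp9 was at 0 in all samples. Of 8 endothelial markers 7 were tested and none passed the edgeR test. With the replicate block Cdh5 was higher (log2 fold change 0.37, adjusted p = 0.00029) and Tie1 and Cldn5 were lower (-0.78 and -0.93, adjusted p = 0.00011 and 0.045). The endothelial markers had sums of 95.5 to 112 and 95.5 to 127 CPM. Of 9 epithelial markers 7 were tested and 2 were lower (Epcam and Cldn4, log2 fold changes -0.32 and -0.29), or 3 lower and 1 higher with the replicate block, with sums of 1016 to 1040.1 and 908 to 1000.4 CPM, and the basal keratins Krt5 and Krt14 had at most 0.374 CPM.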

How the data were processed

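RNA was sequenced from 3 ICF-treated and 3 control samples as strand-specific, single 75-base reads. The authors used Trimmomatic for filtering, HISAT2 for alignment and HTSeq for counting, and deposited raw counts per gene, whole numbers that were not normalized. The labels list GRCm38 and hg38 as builds. The annotation and the strand setting of HTSeq are not given in the sources used here. HTSeq leaves out reads that fit several places.

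Genes were named through GENCODE M21 (GRCm38), which held 50376 of the 50686 identifiers. Counts were tested with edgeR 4.0.16 in R 4.3.3 (TMM, filterByExpr by group, quasi-likelihood test, Benjamini-Hochberg over 16729 genes, threshold 0.05). The procedure was checked on simulated counts that had the same dispersion for every gene and no differences between replicate numbers. That check therefore does not cover differences between replicates or the multiples of 4 in ICF replicate 3. Standard errors come from the SDs of log2 CPM (prior count 2) in each group, and pair ratios from CPM plus 0.1. The pairing comes from the donor numbers in the labels. Deviations from the group means correlated at 0.15, 0.20 and 0.38 between samples numbered 1, 2 and 3. Such deviations cancel out within a group, so these 3 correlations depend on each other and do not show that the samples were pairs. Per the study's methods the experiment was done independently 3 times. Neither they nor the labels say whether a donor was an animal, a line or a culture, and p-values measure the spread between these samples. Genes given sample by sample passed the test, or passed with the block at an absolute log2 fold change of at least 0.3, or had the highest level per kilobase of their class. Lama5 and Itga6, and Lamb2 without its sample values in the text, were added after their values were seen. From each partner list the genes past the test were named, at most 4, with a few others added for their role. The grouping of α subunits by ligand was made after the values were known. The values of 1 tested gene are not reported here by name, and it stays in the counts and medians. Members and lists were chosen with earlier results of these data known. Alternatives were DESeq2 1.42.0, RLE size factors, 2 other count filters, the replicate block alone, in DESeq2 and with offsets for GC content and exon length, each sample left out, both samples numbered 3 left out and the counts of ICF replicate 3 divided by 4. The block without the samples numbered 3 was added after the data were seen.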

Additional observations from a re-analysis of the deposited data

How the results depend on the processing

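Most counts of calls moved with the processing. Integrins and laminins called higher and lower with ICF numbered 1 and 1. With the replicate block they numbered 2 and 9, with the block and offsets for GC content and exon length 2 and 11, with both samples numbered 3 left out 2 and 10, and with the block in addition 2 and 10. The 2 lower genes that the offsets added were Itga5 and Itga6 (edgeR adjusted p = 0.046 and 0.011). DESeq2 and the filter of at least 1 count in any sample each called 5 lower, and DESeq2 with the block 7 (Lamb2 was not called and Itgb6 had no adjusted p). With 1 sample left out they ranged from 0 to 1 higher and from 0 to 2 lower, and no call was made without control replicate 1 or 2 or ICF replicate 1 or 2. Calls among adhesion adaptors numbered 2, and 9 with the replicate block, 7 with it in DESeq2, 10 with the block and offsets, 11 and 7 without the samples numbered 3 (unpaired and with the block), and 1 to 4 with 1 sample left out. Among other basement membrane genes they numbered 3, and 10 under each of the 3 block fits on all samples, 9 and 9 without the samples numbered 3, 6 with DESeq2 and with the looser filter, and 0 to 4 with 1 sample left out. Among other integrin ligands they numbered 2, and 7 with the block, 6 in DESeq2 with and without it, 7 with block and offsets, 8 and 8 without the samples numbered 3, 4 with the looser filter and with the counts of ICF replicate 3 divided by 4, and 1 to 3 with 1 sample left out. Among other laminin receptors they numbered 2, and 7, 5 and 9 under the 3 block fits, 8 and 6 without the samples numbered 3, and 0 to 4 with 1 sample left out. The cause was not tested. Over all genes, 580 were called higher and 733 lower, 2445 and 2561 with the replicate block, and 877 and 1071 by DESeq2. With 1 sample left out, the log2 fold change changed sign for 4 genes that passed no test: it ranged from -0.01 to 0.07 for Itgb4, from -0.05 to 0.08 for Itgb5, from -0.22 to 0.02 for Itgb7 and from -0.44 to 0.12 for Lama3. Without control replicate 1 the value of Itgb4 was -0.0, and without ICF replicate 2 that of Itgb5 was -0.04. No other of the 28 genes changed direction under any alternative. Genes under about 100 reads, Itgb6, Itgb8 and Lamb3 among them, are limited by depth.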
